A study of Mus musculus with 6 samples.

Results

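The 35 genes described here mark the neural retina and its rim, in a study of newborn mouse lenses. They were taken by symbol from a written list, with no threshold on their values, and all 35 were found among the 27179 identifiers of the deposited table. The list was chosen with earlier results of these data known. They fall into 6 groups: 3 neurogenic factors, 9 photoreceptor genes, 2 ganglion cell factors, 10 genes of neurons in general, 4 genes of Mueller glia and 7 genes of the ciliary margin. The groups were kept apart to ask which eye tissue the retinal transcripts in the mutant lenses resemble.

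The samples were lenses of B6/FVB mice at P1, the first day after birth, in 2 groups of 3 libraries. One group carries the genotype label Gclc KO (KO 1 to 3) and the other Gclc CON (CON 1 to 3). Gclc encodes the catalytic subunit of the enzyme that starts glutathione synthesis. The labels name no Cre driver, no deleted exon and no sex, and they do not give the animals or lenses behind a library. Whether the controls carry a floxed allele or a Cre transgene is likewise not given in the sources used here. The p-values therefore measure the spread between these libraries, which may be technical.

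The neural retina and the lens form next to each other in the embryonic optic cup but come from different tissues, the retina from neural ectoderm and the lens from surface ectoderm. Retinal progenitors first make ganglion cells, cones and other early neurons under proneural factors such as ATOH7 and the NEUROD family, and later make rods, bipolar cells and Mueller glia. The rim of the optic cup, the ciliary margin, becomes the ciliary body and iris and lies closest to the lens. A newborn lens has neither neurons nor photoreceptors of its own, although lens cells are known to express a number of genes that neurons also use.

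The promoters of 5 photoreceptor genes are printed here to set the 2 called photoreceptor genes, Arr3 and Opn1sw, beside 3 that hold the letters TAATCC. CRX, a homeodomain factor among the members, is known to act through these letters. Each line holds the 200 bases before the RefSeq start in build GRCm38.p6, in lower case, with TAATCC or its reverse complement GGATTA in capitals. Crx (chr7:15879956-15880155, minus strand) holds GGATTA at 94 and 21 bases before its start, Sag (chr1:87803480-87803679, plus strand) at 87 and Aipl1 (chr11:72037510-72037709, minus strand) at 53. The promoters of the cone genes Arr3 (chrX:100605297-100605496, plus strand) and Opn1sw (chr6:29380514-29380713, minus strand) hold neither form, and nor do those of the rod genes Nrl and Nr2e3, which are not printed.
Crx: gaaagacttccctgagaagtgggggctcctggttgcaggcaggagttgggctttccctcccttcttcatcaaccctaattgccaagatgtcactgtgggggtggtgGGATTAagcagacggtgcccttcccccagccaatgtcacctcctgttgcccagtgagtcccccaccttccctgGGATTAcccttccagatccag
Sag: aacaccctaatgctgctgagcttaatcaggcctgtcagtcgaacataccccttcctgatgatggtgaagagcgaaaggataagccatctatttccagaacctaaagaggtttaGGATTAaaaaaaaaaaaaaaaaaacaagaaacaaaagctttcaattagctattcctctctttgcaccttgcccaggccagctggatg
Aipl1: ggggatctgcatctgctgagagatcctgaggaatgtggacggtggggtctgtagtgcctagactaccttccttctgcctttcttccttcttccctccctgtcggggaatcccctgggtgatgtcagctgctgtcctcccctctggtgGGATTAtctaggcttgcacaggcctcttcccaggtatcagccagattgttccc
Arr3: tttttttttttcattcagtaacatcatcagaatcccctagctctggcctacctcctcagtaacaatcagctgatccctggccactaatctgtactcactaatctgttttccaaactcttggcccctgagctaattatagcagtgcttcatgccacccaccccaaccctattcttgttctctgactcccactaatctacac
Opn1sw: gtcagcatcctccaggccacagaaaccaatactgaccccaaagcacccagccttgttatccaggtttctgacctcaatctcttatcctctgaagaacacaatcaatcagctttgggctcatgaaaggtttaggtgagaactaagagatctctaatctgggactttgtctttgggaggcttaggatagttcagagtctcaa
Both strands of the 250 bases before the start were searched for exact matches, and variants of the letters were not searched. TAATCC stood in 6.25% of 32851 mouse promoters. Of the members, 24 had a listed promoter, with 32 promoters between them. Of these 32 promoters 5 held it, those of Crx, Sag, Aipl1, Apoe and Isl1. CAGATG, the letters that proneural factors of the NEUROD and ATOH7 kind are known to prefer, stood in 14.4% of all promoters. It stood in 8 of the 32 member promoters, from 6 genes (Aipl1, Atoh7, Col9a1, Elavl4, Nrl and Sncg). The match of letters says nothing of whether a factor binds there.

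Libraries held from 20361430 (CON 2) to 61219009 (KO 3) reads in genes. Normalised reads of Gclc were 178, 283 and 173 in the CON libraries and 17.9, 72.1 and 58.1 in the KO libraries, so that every KO library lay below every CON library (log2 difference -1.01, SE 0.28, adjusted p = 0.0387). That call was lost without CON 2 or without any of the KO libraries (adjusted p up to 0.130). Crystallins, the main proteins of the lens, took 59.5% to 68.4% of the reads in CON and 40.5% to 47.5% in KO, and 12 of 15 tested lens markers were lower in KO and none higher (6 lower without CON 2 and 7 without KO 2). Mip, the lens water channel gene, differed by -1.79 and Cryaa by -1.36, and the call of Cryaa was kept only without CON 1 when single libraries were left out (adjusted p up to 0.139). The macrophage markers summed to 1885 to 2895 normalised reads in CON and to 20275, 10514 and 6547 in KO 1 to 3. The transcription factor genes Pax6, needed for both retina and lens, and Six6, needed for the retina, were higher in KO (0.92, adjusted p = 0.0156, and 1.78, adjusted p = 0.000372), and Pax6 lost its call without CON 2 or any KO library (adjusted p up to 0.0714).

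A normalised read is a read divided by the size factor of its library. The size factors of CON 1, CON 2 and CON 3 were 0.947, 0.318 and 0.678. Those of KO 1, KO 2 and KO 3 were all larger, at 1.74, 1.66 and 1.89. A gene at the same normalised level thus had fewer reads in every CON library and was more easily missed there. A log2 difference is KO minus CON on the deposited log2 scale, which compresses differences of genes with few reads. A gene was called when the limma adjusted p over all 11468 genes tested was under 0.05. Of these genes, 6.91% were called higher and 4.39% lower in KO, 11.3% in all. In bulk tissue, fewer cells of a type and less RNA per cell cannot be told apart.

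Of the 35 genes, 25 had enough reads to be tested, and 9 of these were called higher in KO and 0 lower. The 9 were Neurod4, Arr3, Opn1sw, Syt1, Slc1a3, Apoe, Wfdc1, Zic2 and Col9a1. They came from 5 of the 6 groups: 1 of 2 tested neurogenic factors, 2 of 3 photoreceptor genes, 1 of 8 neuronal genes, 2 of 4 Mueller glia genes and 3 of 7 ciliary margin genes. The filter used the mean over all 6 libraries, so that Arr3 and Opn1sw, near 0 in CON, passed it through their KO values. Crx and Zic2, also low in CON, likewise passed it only through their KO values. All 3 tested photoreceptor genes were thus admitted by high KO values, and their share called is no measure of the group. With no filter, 7 of all 35 were called higher, among them 2 of the 9 photoreceptor genes (Arr3 and Sag). In that fit 896 of all 19225 genes were called higher and 360 lower. At an unadjusted p under 0.05 there were 14 higher and 2 lower. The share of all genes at that cut was not counted, so this count and the like counts below have no background beside them. Voom on the recovered reads with size factors called 6 higher and 0 lower, against 421 higher and 472 lower of all 11468 genes. The median log2 difference of the 25 was 0.72, against 0.03 over all genes tested, and 22 of the 25 were positive. In 14 of them all KO libraries lay above all CON libraries, and in 1, Elavl4, all lay below. Over all genes tested these arrangements held for 16.9% and 14.1%. The members were chosen with earlier results of these data known, so the comparisons with all genes are no test of the list. The 16 tested members that were not called had adjusted p-values from 0.0945 upward.

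**Figure D1:**
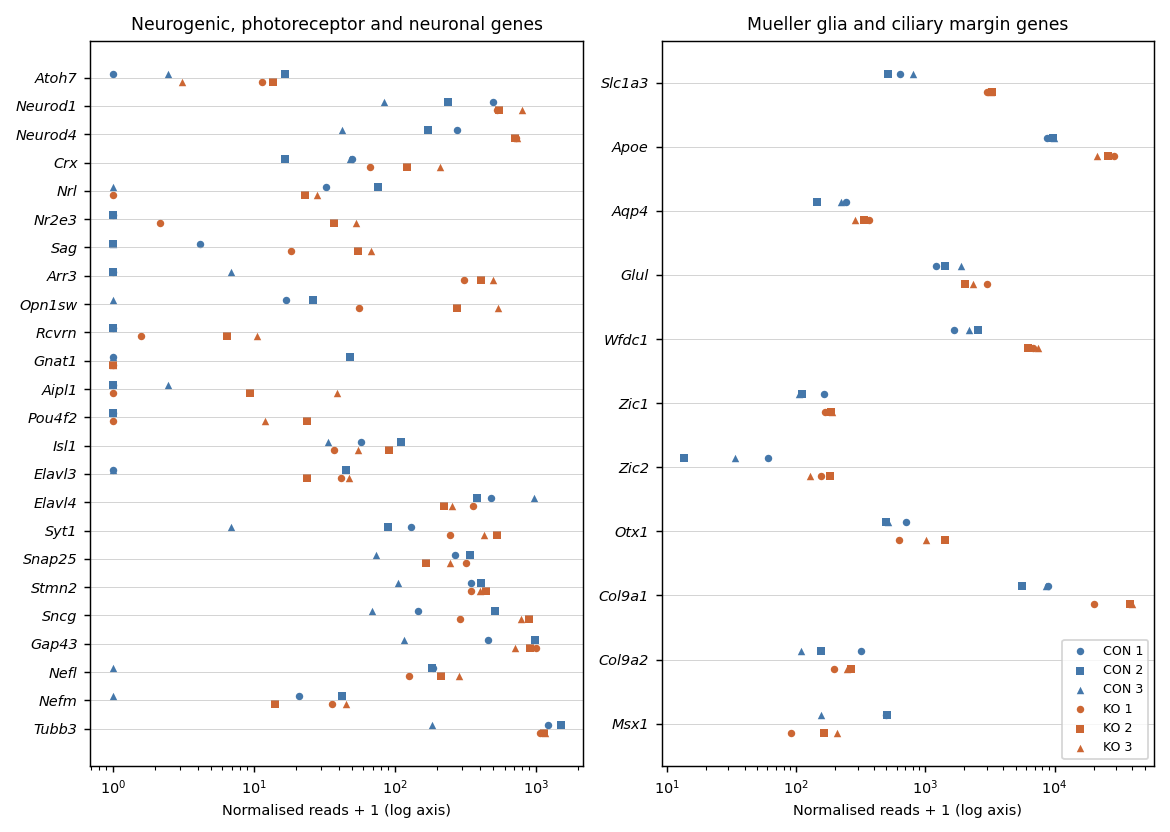
Normalised reads plus 1 (log axis) of all 35 genes in each library, with CON in blue and KO in orange and the marker shape giving the replicate number. Arr3 stands at 0 to 5.90 normalised reads in CON and at 311 to 496 in KO, whereas the points of most neuronal genes overlap.

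**Figure D2:**
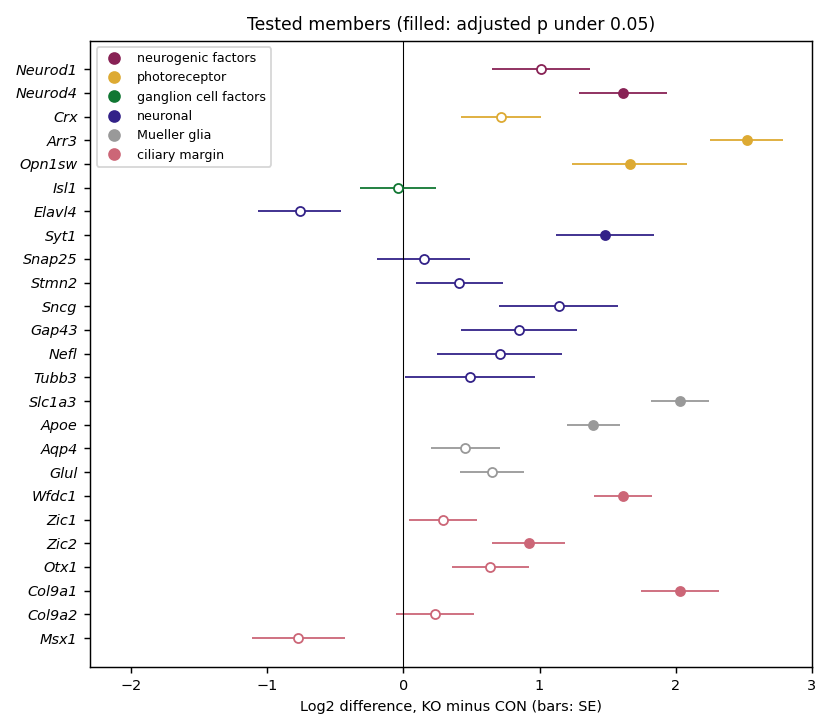
Log2 difference (KO minus CON) of the 25 tested genes, with bars for the SE and filled points for an adjusted p under 0.05. The 9 filled points lie between 0.92 (Zic2) and 2.52 (Arr3), and Elavl4, Msx1 and Isl1 are the 3 points below 0.

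The neurogenic factors are transcription factors that commit retinal progenitors to a neuronal fate. Neurod4, which acts in amacrine, bipolar and photoreceptor precursors, stood at 275.5, 169.9 and 41.3 normalised reads in CON and at 726, 712 and 734 in KO (libraries 1 to 3 in order, here and below). The KO values lay close together and above every CON value, while CON varied widely (162 ± 117 against 724 ± 11.0, SD, n = 3; 4.46-fold; log2 difference 1.61, SE 0.32, adjusted p = 0.00886). Its call was kept when any single library was left out. Neurod1, needed for amacrine cells and for cone opsin patterning, had 493, 236 and 82.6 in CON and 532, 550 and 795.5 in KO. CON 1 nearly reached KO 1, and the difference did not pass (2.31-fold; 1.01, SE 0.36, adjusted p = 0.0945), although Neurod1 was called without CON 1 (adjusted p = 0.0158). Exons of Neurod1 overlap with those of Cerkl on the same strand, which had 0 normalised reads in CON and at most 12.7 in KO, and with those of Gm26755 on the opposite strand, which was not analysed here. Atoh7, the factor required for ganglion cells, had too few reads to be tested, with 0, 15.7 and 1.48 in CON and 10.4, 12.6 and 2.114 in KO. Its groups overlapped.

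The 2 photoreceptor genes called higher in KO were both cone genes. Arr3, which encodes cone arrestin, the protein that quenches the activated cone opsins, had 0, 0 and 4 reads in CON and 540, 683 and 938 in KO. In normalised reads this was 0, 0 and 5.90 against 311, 411 and 496. Every KO library lay far above the highest CON value (pooled ratio 198, 95% counting interval 77.4 to 729; log2 difference 2.52, SE 0.27, adjusted p = 0.000263). Arr3 kept its call whichever library was left out. Opn1sw, the short-wave cone opsin gene, had 15.8, 25.2 and 0 normalised reads in CON and 54.7, 276 and 540 in KO. The KO libraries differed widely among themselves, with KO 1 lowest (13.7 ± 12.7 against 290 ± 243; 21.2-fold; 1.66, SE 0.42, adjusted p = 0.0280). Opn1sw lost its call without CON 2 (adjusted p = 0.0558), CON 3 (0.0832), KO 2 (0.0946) or KO 3 (0.113). Exons of Opn1sw and of Calu, a calcium-binding protein gene on the opposite strand, overlap in the mouse annotation. Calu had 3830 to 5701 normalised reads in CON and 7094 to 8502 in KO (0.72, adjusted p = 0.0455, not called when any library other than CON 1 was removed). The counting is not stated to use strand, so reads of the shared stretch cannot be told apart.

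Crx, the factor that opens the photoreceptor programme in both rods and cones, had 48.6, 15.7 and 47.2 normalised reads in CON and 66.2, 121 and 209 in KO. All KO libraries lay above CON, but KO 1 by little, and the difference did not pass (3.56-fold; 0.72, SE 0.29, adjusted p = 0.143). The other 6 photoreceptor genes had too few reads to be tested. Sag, the rod arrestin gene, had 3.17, 0 and 0 in CON and 17.3, 54.1 and 66.6 in KO, where all KO libraries lay above CON. The CON values rest on 3 reads (pooled ratio 30.1, 95% counting interval 10.2 to 147), and Sag was called when the filter on low values was dropped (adjusted p = 0.0339).

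Nr2e3, which represses cone genes in rods, had no read in CON and 1.15, 36.1 and 51.8 normalised reads in KO. Pooled over the group, it was 19.6-fold higher in KO when CON was set at 3 reads, and 9.79-fold at 6 reads. The pooled KO value joins 2, 60 and 98 reads, and KO 1 lay below the level of 3 CON reads (1.54 normalised reads). These folds are thus no lower bound on the difference between the groups. Rcvrn, the gene of the calcium sensor recoverin, also had no CON read and 0.576, 5.41 and 9.51 in KO, where KO 1 held 1 read. Pooled in the same way, Rcvrn was 3.43-fold higher with 3 reads and 1.71-fold with 6, and these folds are likewise no lower bound. Aipl1, a chaperone gene of rod and cone phosphodiesterase, had 0, 0 and 1.48 in CON and 0, 8.42 and 38.1 in KO, so that the groups overlapped at 0. Nrl, which sets rod fate, had 31.7, 75.5 and 0 in CON and 0, 22.2 and 27.0 in KO. Gnat1, the rod transducin gene, had 15 reads in CON 2 and none elsewhere, which left all KO libraries at 0. Of the genes known best from rods, Sag and Nr2e3 thus had all KO libraries above CON, and Nrl and Gnat1 did not. For Nr2e3 this rests on 2 reads in KO 1, too few to place that library above CON.

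KO 1 was the lowest of the KO libraries for 8 of the 9 photoreceptor genes and for all 3 that were tested. Over all genes tested KO 1 was the lowest KO library for 38.6%. Summed over the 9 genes, the libraries held 99.2, 163.6 and 54.6 normalised reads in CON and 451, 934 and 1438 in KO. KO 1 also had the highest sum of macrophage markers, and the part of macrophage RNA in the photoreceptor values was not tested. Per kilobase of exon, the KO means were 172 normalised reads for Arr3, 113.5 for Opn1sw and 41.9 for Crx, followed by 8.81 for Nr2e3, 5.17 for Sag, 4.97 for Rcvrn, 4.91 for Aipl1 and 2.88 for Nrl. Arr3 and Opn1sw did not differ beyond their spread, and neither did the last 5. Slc1a3 of the Mueller glia stood at 369 on that scale and Col9a1 of the ciliary margin at 6458.

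Of 37 further photoreceptor genes, 9 could be tested, 1 was called higher and 0 lower, with a median log2 difference of 0.20. The called gene was Prom1, which encodes a membrane protein of outer segments that stem and epithelial cells also make (396, 78.7 and 156 against 1081, 1309 and 1328 normalised reads; 2.05, adjusted p = 0.00254). At an unadjusted p under 0.05 there were 2 higher and 0 lower, with no share of all genes counted at that cut. Of the list, 4 genes had no read in any library. The list holds 10 genes known best from cones, picked out after their values were seen, and 0 of them were called by limma or by voom (4 tested; Gngt2 had an unadjusted limma p under 0.05). All KO libraries lay above CON in 2 of them, Pde6h and Cngb3, which were too low to test. Pde6h had 3.17, 0 and 0 in CON and 13.8, 25.9 and 14.8 in KO, and Cngb3 had 22.2, 0 and 0 in CON and 52.4, 72.1 and 41.8 in KO. Gnat2, Gnb3, Gngt2, Cnga3, Thrb and Rxrg overlapped between the groups, as did Pde6c, with at most 12.6 in any library. Opn1mw, the other mouse cone opsin gene, had no read in any library.

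Of the ganglion cell factors and genes of neurons in general, 1 of 9 tested was called higher in KO. Pou4f2, which marks ganglion cells, had no read in CON and 0, 22.8 and 11.1 normalised reads in KO, so that KO 1 overlapped with CON. Pooled over the group, Pou4f2 was 7.22-fold higher in KO with CON set at 3 reads and 3.61-fold at 6. The pooled KO value rests on 38 reads in KO 2 and 21 in KO 3, so these folds are no lower bound on the difference between the groups. Isl1, a factor of ganglion, bipolar and amacrine cells, had 57.0, 110 and 32.4 in CON and 36.3, 89.6 and 53.9 in KO, with no separation (-0.04, SE 0.28, adjusted p = 0.948). Of the 10 neuronal genes 8 were tested, 1 was called higher and 0 lower, and the median log2 difference was 0.60. By voom on the recovered reads 0 were called in either direction. At an unadjusted p under 0.05 the limma counts were 2 higher and 1 lower, with no share of all genes counted at that cut. In only 1 of the 8 did all KO libraries lie above all CON libraries.

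That gene was Syt1, which encodes the calcium sensor of synaptic vesicle release. It had 129, 88.1 and 5.90 normalised reads in CON and 244, 527 and 428 in KO (74.3 ± 62.6 against 400 ± 144; 5.38-fold; 1.48, SE 0.36, adjusted p = 0.0215). CON 3 lay far below the other CON libraries, and the call was lost without CON 3 (adjusted p = 0.0505), KO 2 (0.1001) or KO 3 (0.0659). Elavl4, which encodes a neuronal RNA-binding protein, went the other way, with 480, 381 and 973.5 in CON and 359, 222 and 254 in KO. All KO libraries lay below CON, but the difference did not pass (-0.76, SE 0.31, adjusted p = 0.137). Its close relative Elavl3 was too low to test, with 0, 44.1 and 0 in CON and 40.3, 22.8 and 46.5 in KO, and its groups overlapped.

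The remaining neuronal genes overlapped between the groups. Tubb3, the neuronal tubulin gene, had 1227, 1501 and 181 normalised reads in CON and 1071, 1149 and 1158 in KO (0.49, SE 0.48, adjusted p = 0.566). Without CON 3 its difference was -0.24, so its sign rests on that library. Sncg, the gamma-synuclein gene of ganglion cells, had 146, 516 and 67.8 in CON and 291, 887 and 789 in KO (1.14, SE 0.44, adjusted p = 0.120), and it was called higher without CON 2 (adjusted p = 0.0386). Gap43, a growth cone gene, had 459, 979 and 115 in CON and 1007, 901 and 716 in KO (0.85, adjusted p = 0.234). Stmn2, a tubulin regulator gene of growing axons, ran from 105 to 409 in CON and from 346 to 442 in KO (0.41, adjusted p = 0.456). Snap25, which encodes a part of the vesicle fusion complex, ran from 72.3 to 343 in CON and from 166 to 321 in KO (0.15, adjusted p = 0.827), and its difference was -0.22 without CON 3. The neurofilament gene Nefl had 186, 182.5 and 0 in CON and 126, 212 and 283 in KO (0.71, adjusted p = 0.364). Nefm, whose exons overlap with those of Nefl on the opposite strand, was at most 44.4 in any library and was not tested.

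CON 3 was the lowest CON library in 9 of the 12 neuronal genes and ganglion cell factors, and in 8 of the 9 tested. Over all genes tested this held for 31.2%. The 10 neuronal genes summed to 3260, 4485 and 1521 normalised reads in CON and to 3841, 4542 and 4364 in KO, so that CON 2 lay within the KO range. Of 26 further neuronal genes, 18 were tested, 1 was higher (Celf4; 1.48, adjusted p = 0.0257) and 0 lower, with a median of 0.09. Celf4 had 67.6, 107 and 0 normalised reads in CON and 256, 279 and 409 in KO. It passed the filter only through its KO values, and it lost its call without any of the KO libraries (adjusted p up to 0.0919). Of 29 further genes of inner retinal neurons, 9 were tested, 2 were higher and 0 lower. These were the bipolar cell gene Cabp5 (945, 1391 and 2168 against 5001, 3650 and 4823 normalised reads; 1.53, adjusted p = 0.00511) and Slc6a9, a glycine transporter gene of amacrine cells (893, 161 and 199 against 903, 1989 and 2186; 1.84, adjusted p = 0.0214). KO 1 barely exceeded CON 1 in Slc6a9, whose call did not survive the removal of CON 2, CON 3, KO 2 or KO 3 (highest adjusted p 0.0931). Other bipolar cell genes of the list, picked out after their values were seen, were not called. Grm6 had no read in any library, and Vsx1 and Pcp2 were too low to test. Trpm1 had all KO libraries above CON but did not pass (0.69, adjusted p = 0.0771).

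**Figure D3:**
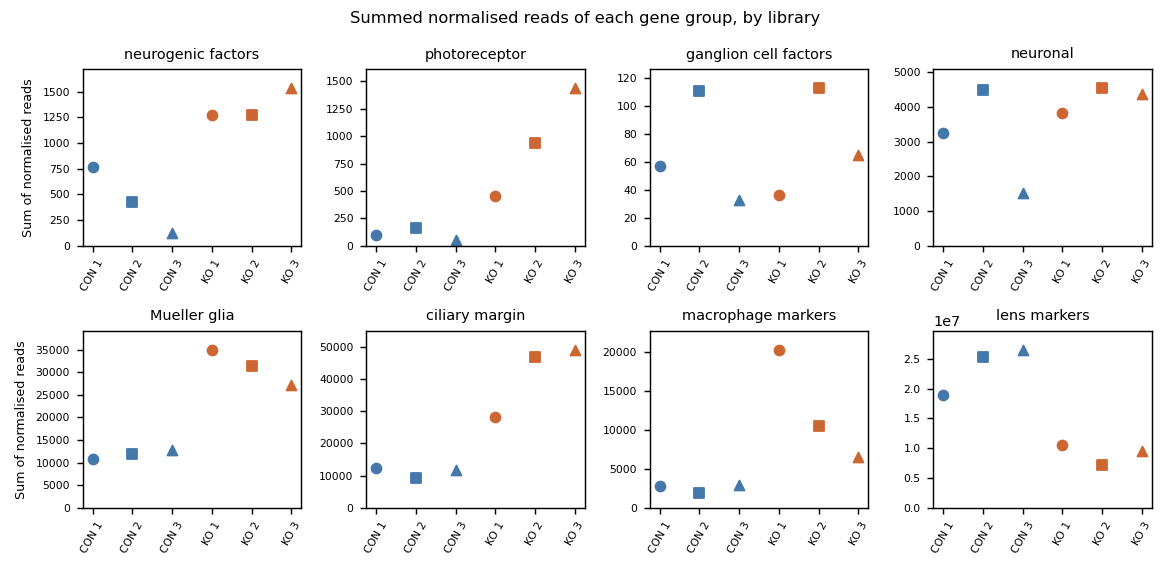
Summed normalised reads of each of the 6 groups, of the macrophage markers and of the lens markers in each library (linear axes from 0, blue for CON and orange for KO). The photoreceptor sum is lowest of the KO libraries in KO 1 (451), where the macrophage sum is highest (20275), and the neuronal sum is lowest in CON 3 (1521).

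Mueller glia span the retina and clear glutamate, potassium and water. All 4 of their listed genes were tested, 2 were called higher and 0 lower, and in all 4 every KO library lay above every CON library. Slc1a3, which encodes the glutamate transporter GLAST, had 630, 516 and 802 normalised reads in CON and 2974, 3250 and 3217 in KO. The groups were far apart with little spread (650 ± 144 against 3147 ± 151; 4.84-fold; 2.03, SE 0.22, adjusted p = 0.000263). Apoe, a lipid carrier gene, had 8677, 9756 and 9847 in CON and 28552, 25832 and 21298 in KO (2.68-fold; 1.40, SE 0.20, adjusted p = 0.00140). Macrophages express Apoe too, and its order in KO, with KO 1 highest and KO 3 lowest, was that of the macrophage marker sum. Aqp4 had the same order in KO, whereas Slc1a3 was lowest in KO 1. In CON the orders differed, with the macrophage sum lowest in CON 2 and Apoe lowest in CON 1. The part of macrophages in the Apoe value was not tested.

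Glul, the glutamine synthetase gene, had 1202, 1410 and 1878 normalised reads in CON and 2983, 2030 and 2318 in KO (1.63-fold; 0.65, SE 0.23, adjusted p = 0.0971). Aqp4, the water channel gene of glial end feet, had 241, 145 and 223 in CON and 365, 333 and 284 in KO (1.62-fold; 0.46, SE 0.25, adjusted p = 0.283). Neither passed the test. Slc1a3 and Apoe kept their calls in all 6 fits that left out a single library. Of 15 further genes of Mueller glia and astrocytes, 10 were tested, 4 were higher and 1 lower, with a median of 0.38. Car2, the carbonic anhydrase 2 gene, had 491, 818 and 768.5 normalised reads in CON and 22942, 34475 and 44112 in KO (5.27, adjusted p = 1.4e-06). Sox9, a transcription factor gene of Mueller glia and of cartilage, had 399, 598 and 133 in CON and 1702, 1936 and 1733 in KO (1.98, adjusted p = 0.00340). Clu, which encodes the secreted chaperone clusterin, was the lower gene, with 21096, 23188 and 26942 in CON and 11372, 11176 and 9745 in KO (-1.12, adjusted p = 0.00423). These 3 genes kept their calls without any single library.

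Of the ciliary margin genes, all 7 were tested, 3 were called higher and 0 lower, with a median of 0.64. Col9a1, which encodes a chain of collagen IX and marks the ciliary epithelium of the embryonic eye, had 8859, 5580 and 8589 normalised reads in CON and 20248, 38275 and 39666 in KO. KO 1 lay below the other KO libraries and above all CON libraries (7676 ± 1820 against 32730 ± 10832; 4.26-fold; 2.03, SE 0.28, adjusted p = 0.00137). Wfdc1, which encodes a secreted protease inhibitor found at the rim of the embryonic retina, had 1675, 2546 and 2190 in CON and 6798, 6223 and 7486 in KO (3.20-fold; 1.61, SE 0.21, adjusted p = 0.000916). The spread within each group was small beside the difference. Both genes kept their calls without any single library. Zic2, a zinc finger factor gene of the peripheral retina, had 60.2, 12.6 and 32.4 in CON and 154, 182 and 127 in KO (4.398-fold; 0.92, SE 0.27, adjusted p = 0.0481). Its call was near the threshold and held in 1 of the 6 fits with a library left out, that without CON 1 (adjusted p up to 0.227 in the others).

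The other 4 ciliary margin genes were not called. Otx1, a homeobox gene of the optic cup rim, had 714, 497 and 510 normalised reads in CON and 627, 1419 and 1015 in KO, with KO 1 within the CON range (0.64, SE 0.28, adjusted p = 0.175). Zic1 had 163, 110 and 105 in CON and 168, 186 and 189 in KO (0.29, adjusted p = 0.502), and its exons overlap with those of Zic4 on the opposite strand (0.56, adjusted p = 0.157). Col9a2, which encodes another chain of collagen IX, had 315, 154 and 108 in CON and 195, 263 and 248 in KO, and its groups overlapped (0.23, SE 0.29, adjusted p = 0.665). Msx1, a BMP target gene of the ciliary body, had 494, 507 and 155 in CON and 91.0, 165 and 207 in KO. CON 3 lay among the KO libraries, and the negative difference did not pass (-0.77, SE 0.34, adjusted p = 0.173), while without CON 3 Msx1 was called lower (adjusted p = 0.0330).

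Of 18 further genes of the ciliary margin and its epithelium, 16 were tested, 5 were higher and 2 lower, with a median of 0.62. Col9a3, which encodes the chain that joins those of Col9a1 and Col9a2, had 322, 113 and 167 normalised reads in CON and 911, 2202 and 1767 in KO (2.31, adjusted p = 0.00161). Of the 3 collagen IX genes, Col9a1 and Col9a3 were thus called and Col9a2 was not. Zic5 had 20.1, 28.3 and 17.7 in CON and 215, 280 and 274 in KO (1.4997, adjusted p = 0.00348). It was low in CON and passed the filter only through its KO values. The same held for Best2, also among the 5 and picked out after its values were seen (71.8, 0 and 73.7 in CON). The 2 lower genes were Sfrp1, a WNT inhibitor gene (-1.65, adjusted p = 0.000556), and Msx2, a relative of Msx1 (495, 614 and 435 against 148, 242 and 183; -0.97, adjusted p = 0.0290). Msx2 lost its call without CON 2 or any KO library (adjusted p up to 0.110). Collagen IX is also made by cartilage. Of 8 cartilage markers, 4 were at or near 0 in every library: Matn1 had no read, and Acan, Comp and Col11a2 had at most 1.59, 3.61 and 2.64 normalised reads in KO. The groups overlapped in Matn3 and Cnmd, and only 2 markers were tested. Both Sox9, which is also counted with the Mueller glia genes, and Col2a1 (1.01, adjusted p = 0.0398) were higher in KO, although Col2a1 lost its call without CON 3 or any KO library (adjusted p up to 0.177).

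Retinal progenitor genes beside the members were higher in part. Of 20 genes of the eye field and of retinal progenitors, 18 were tested, 5 were higher and 0 lower (2 higher without KO 2 or KO 3), with a median of 0.77. Among them was Six6, with 1179, 1347 and 1004 normalised reads in CON and 4375, 4664 and 4305 in KO. It kept its call without any single library. Whether the groups of genes differ from each other in their share of called genes was not tested.

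**Figure D4:**
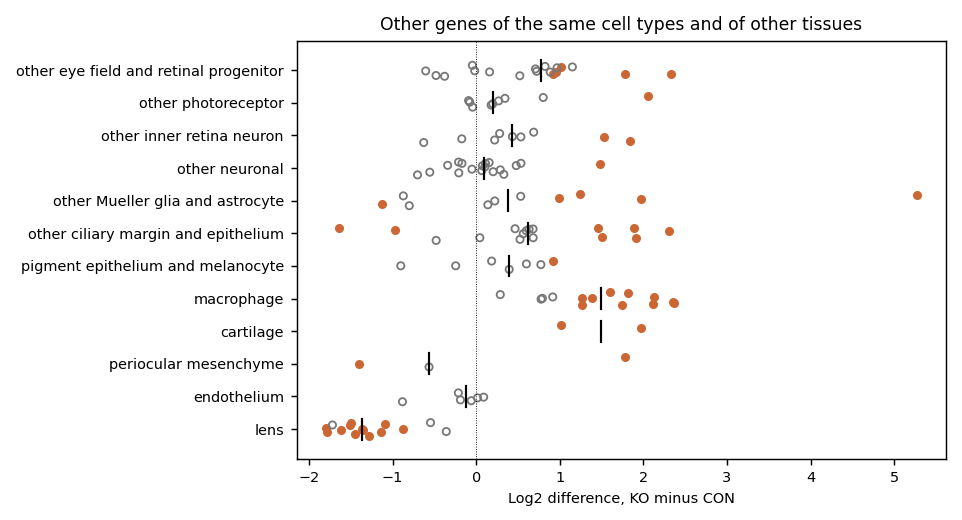
Log2 difference (KO minus CON) of each tested gene in the lists beside the members, with orange points for an adjusted p under 0.05, open points for the others and a black bar for the median of the list. The median is 0.77 for eye field and progenitor genes, 0.62 for ciliary margin genes, 0.09 for neuronal genes and 1.49 for macrophage markers.

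The library names of KO 2 and KO 3 share a style that differs from the style of KO 1 and CON 1 to 3, and CON 2 alone has a different lane suffix in its name. The labels do not say what either stands for. With KO 1 alone set against CON 1 to 3, within the shared style, 0 of the 25 members were called by limma (112 genes higher and 3 lower of all tested), where KO 1 is assumed to vary as the other libraries do. The differences of the called genes in that comparison were 2.27 for Arr3 (adjusted p = 0.0551), 1.96 for Slc1a3 (0.0525), 1.58 for Apoe (0.0876), 1.61 for Wfdc1 (0.101) and 1.62 for Neurod4 (0.269). They were 1.41 for Col9a1 (0.171), 1.03 for Syt1 (0.620), 0.92 for Zic2 (0.620) and 0.64 for Opn1sw (0.791). With the style as a covariate, 4 members were called higher: Arr3, Slc1a3, Apoe and Wfdc1. In that fit 204 of all 11468 genes tested were called higher and 39 lower. Among the 9 called genes, the difference of Opn1sw shrank most within the shared style, from 1.66 to 0.64.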

How the data were processed

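RNA of 6 lens libraries was sequenced. The submitters' processing notes name Trimmomatic, HISAT2 2.1.0, featureCounts 1.6.4, DESeq2 2.11.0.6 and build mm9. The authors deposited log2 values after variance stabilisation. Inverting the transformation gave whole read counts for 100% of the deposited values (within 0.1) and size factors equal to median-of-ratios. Symbols were matched for 25275 of 27179 identifiers. Groups were compared with limma 3.58.1 in R 4.3.3 (lmFit, eBayes with trend, no covariate) on the deposited log2 values of 11468 genes whose mean exceeded the lowest value by 1 unit or more, two-sided, with Benjamini-Hochberg adjustment; the script was tested on simulated data. Counting intervals (95%, exact binomial on pooled reads) cover counting error only, and the floors of 3 or 6 reads over the group cover only that of CON. Errors are SD with n = 3. Named were all members, up to 2 called genes per direction of each other list, Gclc, Pax6, Six6, Mip and Cryaa; others are marked as picked. Some genes of the lists are counted but not reported here by name. The members and lists were chosen with earlier results of these data known. Residuals of equal replicate numbers correlated at -0.364, -0.128 and -0.14, so numbers were not used as pairs. There were 19 alternatives, listed in the closing section with their effect. Promoters came from RefSeq (GRCm38.p6), exon lengths and overlaps from GENCODE M21, which is not the mapping build.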

Additional observations from a re-analysis of the deposited data

How the results depend on the processing

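The fit was repeated with the filter dropped or raised to 3 units, with library medians made equal, with quantile normalisation, with voom scaled by size factors, total reads or reads outside crystallins, with log2 of normalised reads plus 1, without the trend, with library weights, the replicate block, the name style as a covariate or within the shared style, and each library left out. The voom fit with reads outside crystallins and the floor of 6 reads were added after the data were seen. Called higher were 9 members, 4 with the filter of 3 units (where 8 were tested) or the name style covariate, 0 within the shared style and 6 to 10 with a library left out (6 without CON 3, KO 2 or KO 3). The other settings gave 6 to 13. The 13 came with total reads, where 3314 of all 11468 genes were called higher and 85 lower. Library weights gave 12, with 1219 genes higher and 933 lower in the whole table. The replicate block gave 8 members higher with 605 genes higher and 309 lower in the whole table, the call of Zic2 being lost (adjusted p = 0.0996). Called lower were 0, 1 with library weights (Elavl4) and 0 to 1 with a library left out (Msx1 without CON 3).

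By group, the neurogenic count of 1 was 0 with the filter of 3 units, the covariate or the shared style, 2 with total reads or weights and 1 to 2 with a library left out. The photoreceptor count of 2 was 0 with the filter of 3 units or the shared style, 1 with each voom fit, log2 plus 1 or the covariate, and 1 to 2 with a library left out. The neuronal count of 1 was 3 with total reads, 2 with weights, 0 to 2 with a library left out and 0 under 7 settings (no filter, the filter of 3 units, voom with size factors or reads outside crystallins, log2 plus 1, covariate, shared style). The Mueller glia count of 2 was 4 with total reads, 0 within the shared style and 2 with any library left out. The ciliary margin count of 3 was 1 with the covariate, 0 within the shared style and 2 to 3 with a library left out.

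Total reads as library size moved the median of all genes to 0.86, and reads outside crystallins to 0.23. Isl1 turned positive with voom (0.072 with size factors, 0.83 with total reads, 0.26 outside crystallins), with weights (0.019), without CON 2 (0.14) and without KO 1 (0.07), with a range of -0.20 to 0.14 when single libraries were left out. Snap25 turned negative with quantile normalisation (-0.020) and without CON 3 (-0.22, up to 0.40 without other libraries), and Tubb3 without CON 3 (-0.24, up to 0.92). Of 458 single-gene values of members, 392 kept direction and call, 43 lost the call, 14 gained it and 9 turned. Opn1sw and Syt1 also lost their calls with voom and size factors (adjusted p = 0.397 and 0.108) and without the filter (0.0632 and 0.0521). The cause of these changes was not tested.

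For the lists beside the members, the range of the count called higher over the 19 alternatives was 0 to 9 for eye field (5 as reported), 0 to 4 for photoreceptor (1), 0 to 3 for inner retina (2), 0 to 3 for neuronal (1), 2 to 6 for Mueller glia (4), 0 to 11 for ciliary margin (5), 0 to 4 for pigment (1), 3 to 10 for macrophage (10), 0 to 2 for cartilage (2), 0 to 1 for mesenchyme (1) and 0 to 1 for lens (0). The 9 for eye field and the 11 for ciliary margin came with total reads, where 3314 of all 11468 genes were called higher. The range of the count called lower was 0 to 3 for Mueller glia (1), 0 to 2 for ciliary margin (2), 0 to 1 for neuronal, pigment, endothelium (0 each) and mesenchyme (1) and 0 to 13 for lens (12). With a library left out, the counts called higher were 2 to 6 for eye field, 1 for photoreceptor, 1 to 2 for inner retina, 0 to 1 for neuronal, 3 to 4 for Mueller glia, 4 to 6 for ciliary margin, 0 to 2 for pigment, 5 to 10 for macrophage, 1 to 2 for cartilage and 0 to 1 for mesenchyme, and called lower 1 to 2 for ciliary margin, 6 to 13 for lens and 0 to 1 for neuronal, pigment and endothelium.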

Other observations

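Markers of other tissues that a dissected lens could hold were counted in the same fit. Some of the macrophage markers called were low in CON and passed the filter only through their KO values. Of 14 macrophage markers, all tested, 10 were higher in KO and 0 lower (5 higher without CON 2, 6 without KO 1 or KO 2), led by the lysosomal gene Cd68 (63.3, 151 and 168 against 1931, 1165 and 817 normalised reads; 2.37, adjusted p = 0.00103) and the complement gene C1qa (2.12, adjusted p = 0.00254). Of 13 pigment epithelium and melanocyte genes, 7 were tested, Tyrp1 was higher (0.92, adjusted p = 0.0398) and 0 were lower, and Tyrp1 was no longer called when CON 2, KO 1 or KO 2 was removed (highest adjusted p 0.172). Of 9 genes of periocular mesenchyme, 3 were tested. Postn was higher (1.78, adjusted p = 0.0265, not called when CON 2, KO 1 or KO 2 was removed, with 0.0977 at most), and Pdgfra was lower (-1.40, adjusted p = 0.00616). Of 6 endothelial genes, 0 were called by limma or by voom in either direction (0 higher and 1 lower at an unadjusted p under 0.05). None of 4 Schwann cell and neural crest genes and none of 3 cornea epithelium genes had enough reads to be tested. Their summed normalised reads were at most 68.5 and 94.5 in any library.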
